A study of Mus musculus with 12 samples.

Results

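The genes described here were 7 genes of the fat droplet, found by symbol in a table of 3534 gene symbols from mouse aorta. Plin1, Plin4 and Cidec encode proteins of the droplet surface, Dgat2 an enzyme that fills the droplet, Pnpla2 and Lipe enzymes that empty it, and Pparg the nuclear receptor that directs fat cell differentiation. All 7 were in the table, and all 7 passed the filter of at least 1 FPKM in at least 3 libraries, Plin1 through 5 of 11 libraries and the others through all 11. FPKM scales the reads of a gene by its transcript length and by the depth of its library, so levels can be set side by side between genes.

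RNA was sequenced from aorta in 4 groups of 3 deposited samples each. HSAPN samples came from APPL1 knockdown mice on a high-fat diet. HAPN and HFD samples both came from mice of WT genotype on that diet, and their difference is not stated in the labels. WT samples came from mice of WT genotype on a normal diet. The high-fat diet supplied 60% of its energy as fat and was given for 12 weeks to induce type 2 diabetes. A diet time of 12 weeks is listed for the WT samples on normal diet as well. The labels state neither how APPL1 was lowered, nor whether animals were pooled, nor the strain, sex and age of the mice, nor whether replicates were separate animals. A p-value therefore measures the spread between these samples, which may be technical. HFD replicates 1 and 2 held identical values and were counted as 1 library, named HFD replicate 1 here, so 11 distinct libraries entered: 3 HSAPN, 3 HAPN, 2 HFD and 3 WT. Appl1 was not analysed here, so the knockdown could not be checked on its target.

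In a fat cell, triglyceride is made at the endoplasmic reticulum, with diacylglycerol acyltransferases such as Dgat2 adding the last fatty acid, and is stored in a droplet. Perilipin 1 coats that droplet and holds its lipases in check until hormone signals phosphorylate it, while Cidec lets small droplets pass their fat into larger ones. Adipose triglyceride lipase (Pnpla2) then removes the first fatty acid and hormone-sensitive lipase (Lipe) the next. The aorta is wrapped in perivascular fat, so an aorta sample can hold fat cells as well as the smooth muscle of its wall. In bulk tissue, fewer cells of a type and less RNA per cell cannot be told apart.

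The libraries recovered 15620000 to 17840000 reads each from the deposited values, of which the table held 12.0 to 17.6%. At that depth 1 read on a transcript of 1 kb was worth 0.0561 to 0.0640 FPKM. The smooth muscle genes Acta2 and Myh11 were present in every library, at 146 to 1607 and 15.5 to 236 FPKM. None of the 11 listed endothelial genes were analysed here. Fat cell genes differed widely between libraries of a group, and 2 libraries stood apart: HFD replicate 1 and WT replicate 3 lay farthest from the median of the adipocyte markers. HFD replicate 3 stood apart in another way, with 59.3% of its summed FPKM in the single gene Gm23935.

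Promoter windows are shown for the 3 droplet coat genes, whose levels moved together over the libraries, and for Lipe, whose relation to the fat cell markers over all libraries did not pass the test. They are RefSeq windows of GRCm38.p6, 250 bases before to 50 bases after a transcript start, all on the minus strand, at chr7:79732727-79733026 for Plin1, chr17:56109733-56110032 for Plin4, chr6:113434715-113435014 for Cidec and chr7:25395938-25396237 for Lipe. Capitals mark matches to 5 motifs searched on both strands. These were AGGTCA, which is a core motif of nuclear receptors, the direct repeat of AGGTCA with any 1 base between its copies, which PPARγ binds with RXR, TTGCNNAA, a core of C/EBP sites, TATAAA and the E-box CACGTG.
Plin1: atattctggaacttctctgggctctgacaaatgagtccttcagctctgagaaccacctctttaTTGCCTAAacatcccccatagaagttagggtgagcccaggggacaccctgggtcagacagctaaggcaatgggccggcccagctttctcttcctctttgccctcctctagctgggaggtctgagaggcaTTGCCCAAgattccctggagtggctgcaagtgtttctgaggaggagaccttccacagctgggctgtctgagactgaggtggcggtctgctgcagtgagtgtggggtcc
Plin4: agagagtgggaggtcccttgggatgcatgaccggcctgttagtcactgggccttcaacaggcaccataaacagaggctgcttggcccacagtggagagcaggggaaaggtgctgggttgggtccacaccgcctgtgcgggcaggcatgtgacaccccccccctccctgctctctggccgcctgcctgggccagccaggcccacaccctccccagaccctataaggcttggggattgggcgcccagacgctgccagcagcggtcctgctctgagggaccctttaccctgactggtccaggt
Cidec: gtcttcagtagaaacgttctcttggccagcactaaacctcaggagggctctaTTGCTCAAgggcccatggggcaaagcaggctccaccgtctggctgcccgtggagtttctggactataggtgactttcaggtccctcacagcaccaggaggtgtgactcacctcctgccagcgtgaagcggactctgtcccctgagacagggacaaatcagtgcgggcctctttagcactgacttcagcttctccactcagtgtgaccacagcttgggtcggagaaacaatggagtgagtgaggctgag
Lipe: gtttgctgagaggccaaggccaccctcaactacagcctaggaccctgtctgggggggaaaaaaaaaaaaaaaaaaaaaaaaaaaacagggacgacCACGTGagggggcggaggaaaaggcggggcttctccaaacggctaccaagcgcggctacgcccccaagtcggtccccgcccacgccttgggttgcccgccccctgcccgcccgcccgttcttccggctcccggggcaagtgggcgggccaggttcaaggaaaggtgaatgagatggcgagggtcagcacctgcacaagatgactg

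The Plin1 window held 2 matches to TTGCNNAA, at bases 64 and 193 of the window, and the Cidec window held 1, at base 53. The Lipe window held CACGTG once, at base 96, and the Plin4 window held none of the 5 motifs. Cidec and Lipe each had another window, not printed, which held none of them either; that of Cidec, at chr6:113435711-113436010, covers the annotated start of the gene, and that of Lipe is at chr7:25390063-25390362. The printed windows of these 2 genes were those with a match. These matches are descriptions of letters and not binding sites. Over all 32851 windows of this length, TTGCNNAA occurred in 10.8%, CACGTG in 7.15%, AGGTCA in 16.3%, TATAAA in 13.6% and the spaced repeat in 0.0396%. Windows were found for 6 of the 7 genes, 10 windows in all, among them 3 for Pparg. AGGTCA occurred in 2 of those Pparg windows, and the spaced repeat in none of the 10. TATAAA occurred in 1 of the 10, a Pparg window. TTGCNNAA occurred in 3 of the 10, of Plin1, Cidec and Pparg, so it was not particular to droplet coat genes. AGGTCA is contained in the spaced repeat, so a match to the repeat would also count for it.

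Among the coat proteins, Plin1 varied most. Plin1 (chr7:79720218-79732903, minus strand, GRCm38, as are all gene positions here) stood at 0.0974, 0.723 and 1.28 FPKM in HSAPN, 0.636, 4.97 and 0.206 FPKM in HAPN, 31.8 and 0.0129 FPKM in HFD, and 0.455, 2.78 and 14.4 FPKM in WT. In reads, this was 2361 in HFD replicate 1 and 1 in HFD replicate 3, so the highest and the lowest of the 11 libraries carried the same group label and differed 2460-fold, a ratio that rests on that single read. All 4 groups overlapped, and both WT replicate 3 and HAPN replicate 2 stood well above their own groups' other libraries.

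Plin4, a perilipin abundant in white fat, had the same high and low ends. Plin4 (chr17:56100591-56109803, minus strand) was at 2.63, 2.49 and 4.44 FPKM in HSAPN, 5.08, 7.71 and 1.85 FPKM in HAPN, 41.9 and 1.38 FPKM in HFD, and 3.33, 10.6 and 14.5 FPKM in WT. HFD replicate 1 was again highest and HFD replicate 3 lowest, a 30.3-fold span. Cidec (chr6:113424634-113435760, minus strand) was at 4.24, 4.39 and 5.74 FPKM in HSAPN, 4.25, 18.3 and 2.20 FPKM in HAPN, 78.6 and 2.40 FPKM in HFD, and 3.57, 10.2 and 40.7 FPKM in WT. HFD replicate 1 and WT replicate 3 were the highest for Cidec too, while HAPN replicate 3 was the lowest. Cidec exceeded Plin1 in every library, from 2.47 to 185 times on the FPKM scale.

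Dgat2, the acyltransferase, kept a narrower span. Dgat2 (chr7:99153658-99182719, minus strand) was at 3.32, 2.63 and 4.88 FPKM in HSAPN, 3.92, 7.08 and 1.88 FPKM in HAPN, 16.3 and 2.50 FPKM in HFD, and 3.69, 6.66 and 18.4 FPKM in WT. The highest library was WT replicate 3 and not HFD replicate 1, and the span was 9.78-fold.

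The lipases had the highest median levels of the set. Pnpla2 (chr7:141455198-141460743, plus strand) was at 31.6, 31.8 and 31.8 FPKM in HSAPN, 27.8, 36.7 and 28.1 FPKM in HAPN, 73.5 and 24.5 FPKM in HFD, and 22.6, 34.5 and 48.5 FPKM in WT. It had the highest level of the 7 genes in 10 of 11 libraries, Cidec taking that place in HFD replicate 1, and spanned 3.25-fold. Lipe (chr7:25379527-25398710, minus strand) was at 15.6, 12.4 and 12.1 FPKM in HSAPN, 9.54, 13.3 and 13.9 FPKM in HAPN, 28.6 and 12.4 FPKM in HFD, and 5.49, 6.88 and 14.5 FPKM in WT. WT replicates 1 and 2 were below all 8 high-fat libraries, and WT replicate 3 lay among them. The 8 erythrocyte genes found of 10 listed were divided in the same way, with a sum of 3183 to 4901 FPKM in HSAPN, 1313 to 3919 in HAPN, 3860 and 2207 in HFD, and 413, 413 and 3216 in WT, and their part in the Lipe values was not tested.

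Pparg was low and even. Pparg (chr6:115360951-115490399, plus strand) was at 3.26, 2.91 and 3.47 FPKM in HSAPN, 4.15, 2.66 and 3.63 FPKM in HAPN, 5.79 and 3.48 FPKM in HFD, and 6.71, 4.01 and 4.86 FPKM in WT. Its highest library was WT replicate 1, which was the lowest WT library for each of the other 6 genes, and the span was 2.52-fold. The deposited table gives 1 value per gene, so the Pparg isoforms of fat cells and of other cells are not separated.

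**Figure D1:**
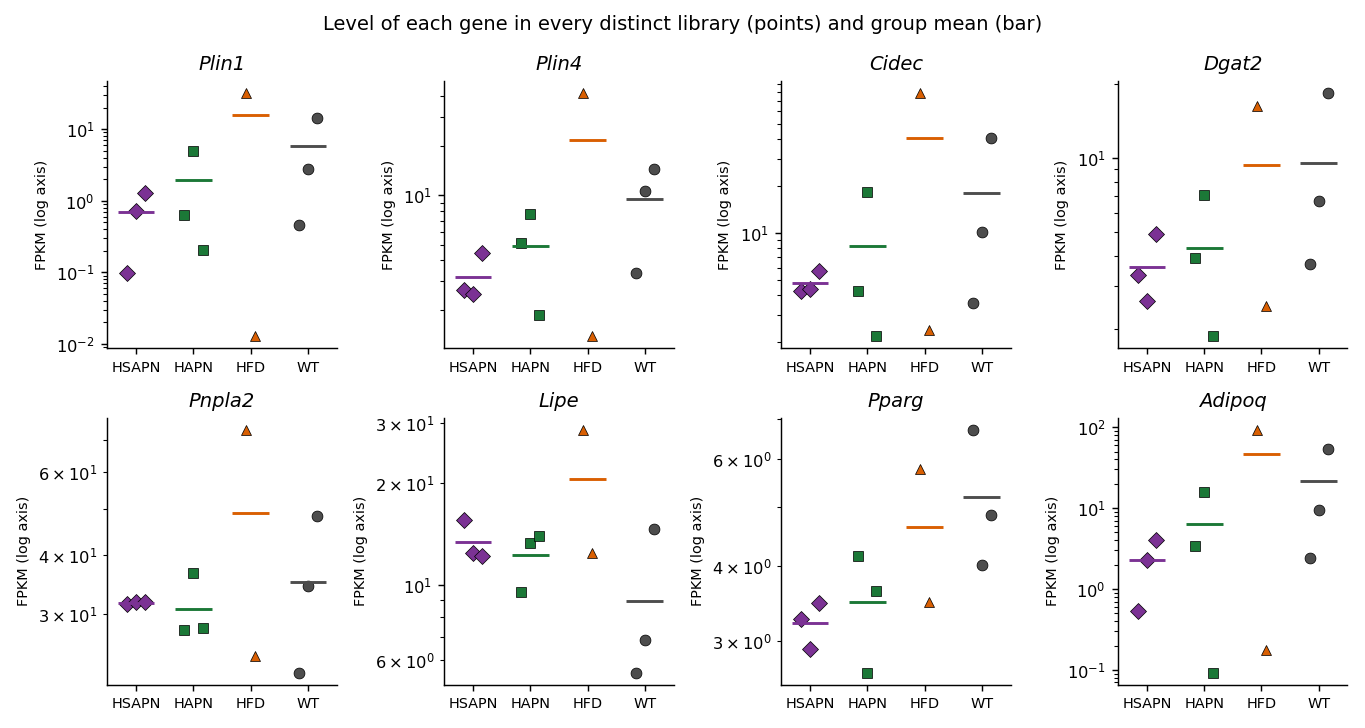
Level of each gene in FPKM (vertical log axis, its range set per panel) in the 11 distinct libraries, as points, with a bar at the group mean, in HSAPN, HAPN, HFD and WT; Adipoq, the adiponectin gene, is added as a fat cell gene. In the panels of Plin1 and Plin4 the 2 HFD libraries are the highest and the lowest, at 31.8 and 0.0129 FPKM for Plin1, whereas Pparg stays between 2.66 and 6.71 FPKM in all libraries.

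The order of levels over the 11 libraries, by median, was Pnpla2 (31.8 FPKM), Lipe (12.4 FPKM), Plin4 (4.44 FPKM), Cidec (4.39 FPKM), Dgat2 (3.92 FPKM), Pparg (3.63 FPKM) and Plin1 (0.723 FPKM). The ranges of Pnpla2 and Lipe overlapped only through HFD replicate 1, where Lipe reached 28.6 FPKM, and Pnpla2 exceeded Lipe in every library. The neighbours Plin4, Cidec, Dgat2 and Pparg overlapped throughout. Plin1 was the lowest of the 7 in 8 libraries and Pparg in the other 3, namely HAPN replicate 2, HFD replicate 1 and WT replicate 3.

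Spread within groups divided the genes. The SD of log2(FPKM + 1) within groups was 1.77 for Plin1, 1.65 for Cidec, 1.32 for Plin4 and 0.94 for Dgat2, more than in 98.4%, 98.0%, 96.6% and 92.8% of the 1656 tested genes. It was 0.52 for Pnpla2, 0.50 for Lipe and 0.27 for Pparg, against a median of 0.35 over all tested genes. The group labels held 51.7% of the total spread of Pparg and 46.7% of that of Lipe, but 13.6 to 24.5% for the other 5, with a median of 42.7% over all tested genes. All of the genes but Pparg thus had more of their spread within groups than between them, as had the median tested gene. The 4 genes of droplet coat and triglyceride synthesis had the widest spread within groups.

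Those 4 genes followed the level of fat cell marker genes in a library, and their relation to markers of other cell types was not tested. The relation is thus not shown to be particular to fat cell markers. Cardiac markers had the same highest library and the same lowest libraries, as given below. The fat cell measure was the mean log2(FPKM + 1) of 19 adipocyte markers found in the table of 21 listed, among them Adipoq, Fabp4, Cfd, Lep and Car3 and none of the 7 genes. Pearson's r over the 11 libraries was 0.983 for Plin4, 0.981 for Plin1, 0.977 for Cidec and 0.973 for Dgat2, each with a permutation p of 1e-05, the smallest that 100000 resamples can give (2-sided; adjusted over the 7 relations 1.75e-05). Spearman's rho was 0.973 for Plin4 and Dgat2 (permutation p = 1e-05, adjusted 3.5e-05), and 0.936 for Plin1 and 0.945 for Cidec (permutation p = 8e-05, adjusted 0.00014). Without HFD replicate 1 and WT replicate 3, the libraries farthest from the median marker level, r was still 0.966, 0.931, 0.915 and 0.969 for Plin4, Plin1, Cidec and Dgat2. On deviations from group means it was 0.981, 0.981, 0.978 and 0.970. The permutation treats all 11 libraries as exchangeable across groups. Genes and markers were both picked as fat cell genes, with earlier results of these data known. The p-values do not allow for that choice and describe the closeness of the relation only.

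The slopes differed by gene. Per log2 unit of the marker mean, Plin1 gained 1.47 log2 units, Cidec 1.34, Plin4 1.10 and Dgat2 0.795. Pnpla2 gained 0.376, with r = 0.899 (permutation p = 4e-05, adjusted 5.6e-05) and rho = 0.773 (permutation p = 0.00747, adjusted 0.0105). Without the 2 farthest libraries its r was 0.603, and on deviations from group means it was 0.943.

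For Lipe and Pparg the relation over all libraries did not pass the test. For Lipe, r was 0.420 (permutation p = 0.178, also after adjustment) and rho 0.0909 (permutation p = 0.797), and r was -0.399 without the 2 farthest libraries. Within groups it was 0.726, where the groups' own offsets are removed. For Pparg, r was 0.439 (permutation p = 0.151, adjusted 0.177) and rho 0.355 (permutation p = 0.288, adjusted 0.337), with r = -0.0447 without those libraries and 0.179 within groups.

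**Figure D2:**
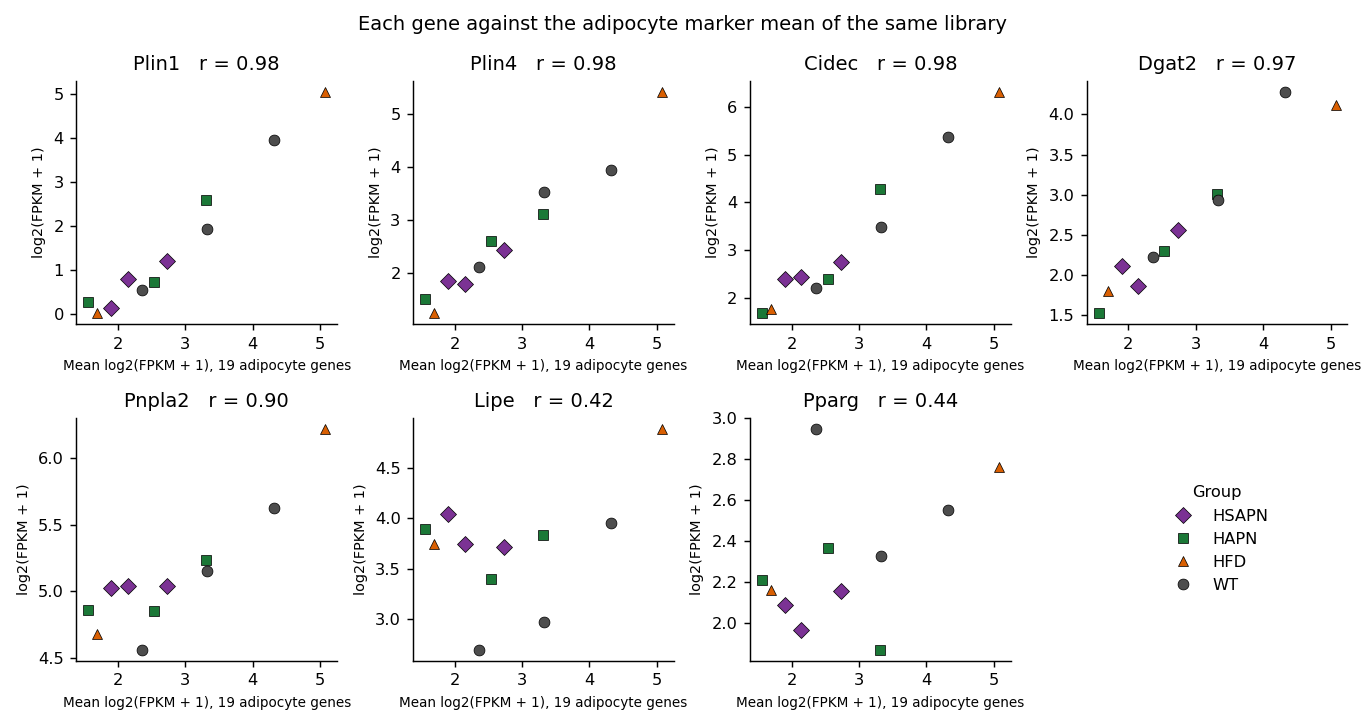
log2(FPKM + 1) of each gene (vertical axis) against the mean log2(FPKM + 1) of 19 adipocyte genes in the same library (horizontal axis), 1 point per distinct library, marked by group. Plin1, Plin4, Cidec and Dgat2 rise along the marker mean with r of 0.97 to 0.98, whereas WT replicates 1 and 2 lie below the other Lipe points.

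The marker lists give the size of these differences. The summed FPKM of the 19 adipocyte markers was 107 to 234 in HSAPN, 102 to 420 in HAPN, 122 and 1952 in HFD, and 221 to 1283 in WT. Lep, which encodes leptin, was listed at 0 in HSAPN replicate 1, HFD replicate 3 and WT replicate 1, and Acvr1c in HAPN replicate 3. Adipoq was at 0.533 to 4.06 FPKM in HSAPN, 0.0923 to 15.8 FPKM in HAPN, 92.6 and 0.174 FPKM in HFD, and 2.44 to 53.8 FPKM in WT. For 15 brown fat markers of 19 listed, the sum was 25.9 to 92.5 in HSAPN, 23.4 to 66.5 in HAPN, 31.0 and 212 in HFD, and 42.9 to 121 in WT. Ucp1, the defining brown fat gene, was listed at 0 in HSAPN replicate 3 and WT replicate 1.

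Markers of other cell types also differed between libraries. Bpifa1, the one airway gene in the table of 11 listed, was at 27.9 to 1149 FPKM in HSAPN, 2.81 to 3848 FPKM in HAPN, 6438 and 5.84 FPKM in HFD, and 238 to 10735 FPKM in WT. The 3 cardiac genes in the table, of 13 listed, summed to 15.6 to 154 FPKM in HSAPN, 7.79 to 129 in HAPN, 389 and 7.92 in HFD, and 48.3 to 310 in WT. The 10 smooth muscle genes of the aortic wall itself, found of 12 listed, summed to 324 to 535 FPKM in HSAPN, 303 to 560 in HAPN, 932 and 263 in HFD, and 720 to 2909 in WT, with the highest sum in WT replicate 2. The 7 fibroblast genes found of 12 listed summed to 135 to 153 FPKM in HSAPN, 127 to 146 in HAPN, 262 and 148 in HFD, and 199 to 217 in WT. The 3 macrophage genes found of 12 summed to 37.7 to 57.5 FPKM in HSAPN, 22.3 to 59.7 in HAPN, 82.9 and 30.3 in HFD, and 21.1 to 45.0 in WT. The differences between groups were fitted with the adipocyte markers as a covariate, and the part of the other cell types was not tested.

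The high-fat diet was first set against the normal diet within WT genotype, as HFD against WT. None of the 7 genes passed the threshold, an adjusted p of 0.05 (Benjamini-Hochberg, 1656 tested genes), and limma called 0% of all genes (0 genes, with 189 at an unadjusted p under 0.05; limma-voom on recovered reads also called 0). Lipe had the smallest p, at 20.5 ± 11.5 FPKM in HFD (SD, n = 2) and 8.97 ± 4.88 FPKM in WT (SD, n = 3), a log2(FPKM + 1) difference of 1.11 (SE 0.416, limma adjusted p = 0.353). The other 6 had log2 differences between -0.19 (Dgat2) and 0.39 (Plin1), and the SE of Plin1 was 1.40. The median over the 7 was 0.33, with 5 higher and 2 lower, against 0.07 over all tested genes. Which HFD library was kept decided the direction: the median was 1.68 without HFD replicate 3 and -1.34 without HFD replicate 1. All 7 genes overlapped between the groups, where 19.3% of tested genes did not.

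HAPN was then set against HFD, 2 groups with the same labelled genotype and diet. None of the 7 passed, and limma called 0.181% of tested genes (3 genes). All 7 were lower in HAPN as fitted, with log2 differences from -1.34 for Plin1 to -0.31 for Pparg (limma adjusted p 0.590 to 0.686), a median of -0.68 against -0.24 over all genes. Plin1 averaged 1.94 ± 2.64 FPKM in HAPN (SD, n = 3) and 15.9 ± 22.5 FPKM in HFD (SD, n = 2), where the SD exceeds the mean in both groups. Without HFD replicate 1 the median became 0.47, and without HFD replicate 3 it was -1.83. All 7 overlapped, with 26.3% of tested genes not overlapping. With values divided by median-ratio size factors, the all-gene median was -0.04 (44.1% of genes higher, against 24.9% as fitted), and all 7 were still lower (median -0.45). With the mean of the adipocyte markers as a covariate they were not: Plin1 (0.02), Plin4 (0.09), Cidec (0.01) and Dgat2 (0.03) were above 0 and the other 3 below it, with a median of 0.01. Those 4 genes follow that mean closely (r of 0.973 to 0.983), so this fit leaves little of any difference they share with it. It cannot tell where such a difference comes from, which was not tested.

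The knockdown was set against each group of WT genotype on the same diet, and these comparisons share the HSAPN libraries. For HSAPN against HAPN, none of the 7 passed and limma called 0.121% of genes (2 genes). Their log2 differences lay between -0.48 (Plin1, SE 1.25) and 0.13 (Lipe, SE 0.372), with a median of -0.10 against 0.02 over all genes, and each had a limma adjusted p of 0.999. The median was 0.19 without HAPN replicate 2 and -0.48 without HAPN replicate 3. The 3 HSAPN libraries were closely alike for Pnpla2, at 31.7 ± 0.130 FPKM in HSAPN and 30.9 ± 5.04 FPKM in HAPN (SD, n = 3 each). All 7 overlapped, against 17.5% of tested genes that did not.

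For HSAPN against HFD, limma called 0% of genes (0 genes, 66 at an unadjusted p under 0.05, and limma-voom also 0), and none of the 7 passed. All 7 were lower in HSAPN as fitted, from -1.82 for Plin1 (SE 1.40) and -1.51 for Cidec (SE 1.31) to -0.39 for Pparg (SE 0.260), each with a limma adjusted p of 0.885. Their median was -0.78, against -0.18 over all genes. It was 0.37 without HFD replicate 1 and -1.94 without HFD replicate 3. Pparg was the one gene whose groups did not overlap, at 2.91 to 3.47 FPKM in HSAPN against 3.48 and 5.79 FPKM in HFD, and the groups of 19.7% of all tested genes were also apart. With median-ratio scaling the all-gene median was -0.02 (46.9% higher, against 27.1% as fitted), and all 7 were still lower (median -0.60). With the adipocyte marker covariate, Cidec (0.05), Dgat2 (0.10) and Pnpla2 (0.05) were above 0 and the other 4 below it, Plin1 at -0.15 and Plin4 at -0.06, with a median of -0.06. The limit of this covariate, given for HAPN against HFD, holds here too.

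**Figure D3:**
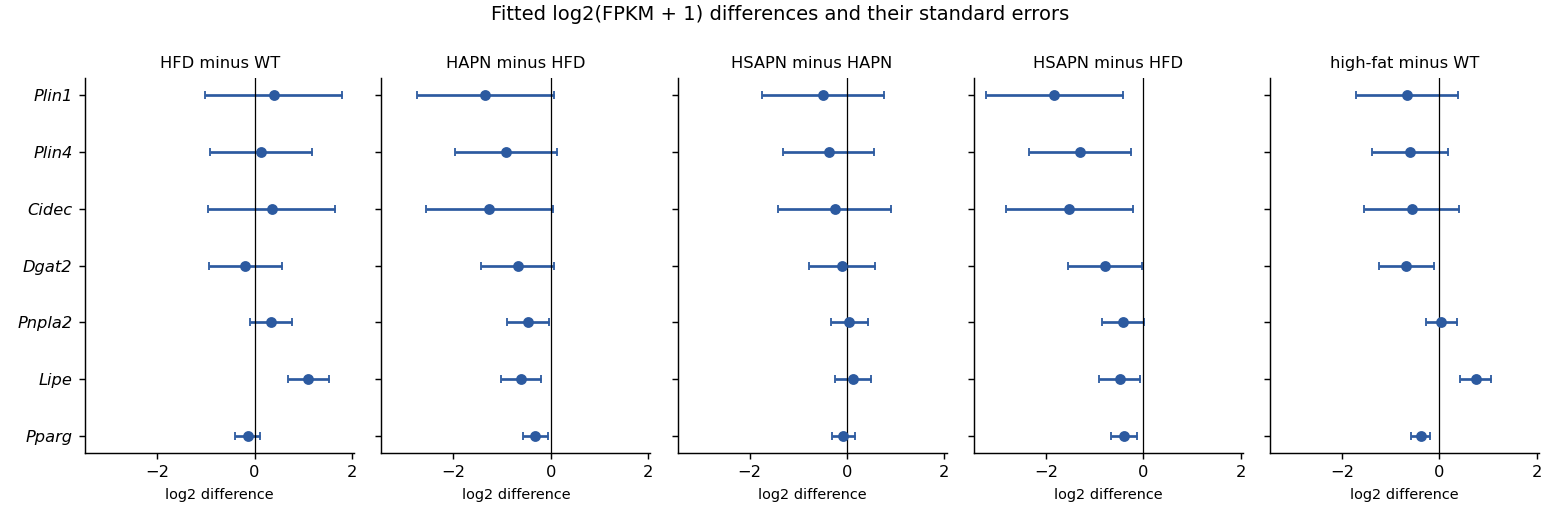
Fitted difference of log2(FPKM + 1) (horizontal axis) with its standard error (bars) for each gene in the 5 comparisons, 1 panel each, the first-named group minus the second. The SE of Plin1 in HFD minus WT is 1.40, and Lipe is at 1.11 in HFD minus WT and 0.74 in high-fat minus WT.

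The high-fat groups together held 8 libraries, against the 3 of WT. The fitted difference was the mean of the HFD, HAPN and HSAPN group means minus the WT mean. Each HFD library, among them HFD replicate 1, thus weighed more in it than a library of HAPN or HSAPN. The FPKM averages over the 8 libraries weigh each library alike. Lipe averaged 14.7 ± 5.87 FPKM in the high-fat libraries (SD, n = 8) and 8.97 ± 4.88 FPKM in WT (SD, n = 3), a log2 difference of 0.74 (SE 0.310, limma adjusted p = 0.196). None of the 7 passed, and limma called 0.0604% of genes (1 gene). Pparg averaged 3.67 ± 0.969 FPKM in the high-fat libraries and 5.20 ± 1.38 FPKM in WT, a log2 difference of -0.38 (SE 0.194, limma adjusted p = 0.247). The other 5 had log2 differences of -0.68 (Dgat2) to 0.04 (Pnpla2), and the median of the 7 was -0.57 against -0.06 over all genes. It was -1.14 without WT replicate 1 and 0.24 without WT replicate 3. All 7 overlapped, where 4.05% of tested genes did not.

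Lipe was the one gene of the 7 whose call changed when a library was left out. Without WT replicate 3, its high-fat minus WT difference was 1.12 (SE 0.286) and passed the threshold (limma adjusted p = 0.0380). That fit called 240 genes in all, against 1 of 1656 tested genes with all libraries, so the call is not particular to Lipe. With the adipocyte marker mean as a covariate, the difference was 0.94 (SE 0.241, limma adjusted p = 0.0682). Without HFD replicate 1 it was 0.55 (limma adjusted p = 0.222). Over all 18 alternatives the adjusted p ran from 0.0380 to 0.559 and the difference from 0.49 to 1.12, higher in the high-fat libraries throughout.

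The other 6 did not pass with that covariate either. In high-fat minus WT the fitted difference was 0.28 for Plin1 (SE 0.245), 0.31 for Cidec (SE 0.245), 0.09 for Plin4 (SE 0.196), -0.18 for Dgat2 (SE 0.180), 0.30 for Pnpla2 (SE 0.149) and -0.35 for Pparg (SE 0.203), with limma adjusted p of 0.191 to 0.756. The SE of Plin1 was 1.04 without the covariate. For Plin1, Plin4, Cidec and Dgat2 the limit of the covariate given above holds here as well.

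**Figure D4:**
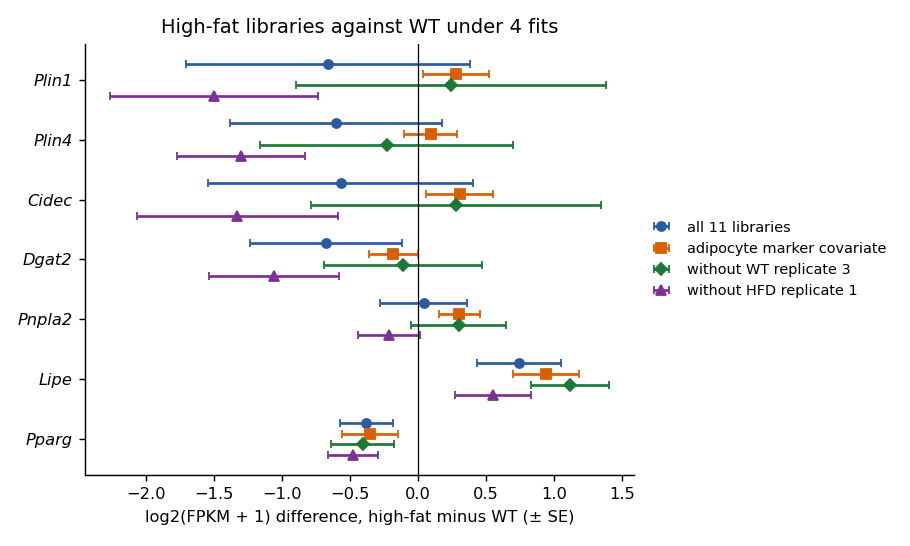
High-fat minus WT difference of log2(FPKM + 1) (horizontal axis, with SE as bars) for each gene under 4 fits: all 11 libraries, the adipocyte marker mean as covariate, without WT replicate 3 and without HFD replicate 1. Lipe stays to the right of 0 in all 4, at 0.74, 0.94, 1.12 and 0.55, and Plin1 changes side, at -0.66, 0.28, 0.24 and -1.50.

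Within a library, Lipe stood nearer to Pnpla2 on the high-fat diet than on the normal diet. The ratio of Lipe to Pnpla2, in FPKM, was 0.492, 0.390 and 0.382 in HSAPN, 0.343, 0.362 and 0.495 in HAPN, 0.390 and 0.506 in HFD, and 0.243, 0.199 and 0.300 in WT. All 8 high-fat libraries lay above all 3 WT libraries. The ratio of Lipe to Dgat2 on the log2(FPKM + 1) scale was also apart, at 0.78 to 2.37 in the high-fat libraries and -0.32 to 0.47 in WT. These were 2 of the 21 pairs among the 7 genes, and 5.39% of all pairs of tested genes were apart in the same way. Lipe itself was apart from 7.07% of the other tested genes and Pnpla2 from 2.54%. This pair was singled out after the values were seen, and no test is given for it.

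Other droplet and lipase genes came from lists of the pathway, and no gene of these lists passed the threshold in any of the 5 comparisons. Of 20 listed droplet proteins, 4 were in the table and tested. Plin2, the perilipin of most cells outside fat, was at 35.0, 49.4 and 37.6 FPKM in HSAPN, 31.5, 46.0 and 57.0 FPKM in HAPN, 52.6 and 47.3 FPKM in HFD, and 21.8, 18.4 and 30.9 FPKM in WT. All 8 high-fat libraries lay above all 3 WT libraries, with a high-fat minus WT log2 difference of 0.91 (SE 0.219, limma adjusted p = 0.128). In that comparison the groups of 4.05% of all tested genes were apart. Plin5, the perilipin of oxidative tissue, and Cidea, the brown fat relative of Cidec, had high-fat minus WT log2 differences of -0.57 (limma adjusted p = 0.273) and -0.56 (limma adjusted p = 0.324).

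Of 25 listed lipolysis genes, 12 were tested. As fitted, 11 were higher in HFD than in WT and 1 lower (median 0.31), where 57.5% of all tested genes were higher (median 0.07). Of the 12, 3 (Adrb3, Aqp7 and Fabp4) are also adipocyte markers. Fabp4 was at 216 FPKM in HFD replicate 1 and 2.10 FPKM in HFD replicate 3. In high-fat minus WT, 5 of the 12 were higher and 7 lower (median -0.04). G0s2, the inhibitor of adipose triglyceride lipase, was at 35.2, 38.4 and 43.2 FPKM in HSAPN, 31.1, 60.2 and 40.0 FPKM in HAPN, 50.7 and 81.1 FPKM in HFD, and 18.9, 23.4 and 53.0 FPKM in WT. WT replicates 1 and 2 were below all high-fat libraries and WT replicate 3 among them, as for Lipe (log2 difference 0.70, limma adjusted p = 0.220). Mgll, the monoglyceride lipase that completes lipolysis, had a log2 difference of 0.38 (limma adjusted p = 0.329), and Adra2a, the adrenergic receptor that restrains lipolysis, one of -0.83 (limma adjusted p = 0.192).

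Among 9 tested triglyceride synthesis genes, 3 were higher and 6 lower in high-fat minus WT (median -0.13), with Gpat4, which adds the first fatty acid to glycerol phosphate, at 0.38 and Gpd1, which makes glycerol phosphate, at -0.63 (limma adjusted p = 0.213 and 0.248). Among 7 tested fatty acid synthesis genes, 3 were higher and 4 lower (median -0.21), with Slc25a1, the citrate carrier, at -0.40 (limma adjusted p = 0.255). Among 13 tested partners and targets of PPARγ, 6 were higher and 7 lower (median -0.03). Angptl4, a PPAR target that inhibits lipoprotein lipase, averaged 21.4 ± 7.42 FPKM in the high-fat libraries (SD, n = 8) and 7.92 ± 7.02 FPKM in WT (SD, n = 3), a log2 difference of 1.61 (SE 0.361, limma adjusted p = 0.120). Its groups overlapped, with the highest WT library at 16.0 FPKM and the lowest high-fat library at 13.6 FPKM. In HFD minus WT, 12 of the 13 were higher as fitted, where 57.5% of all tested genes were, and in HSAPN minus HFD all 13 were lower, where 27.1% of all tested genes were higher. These comparisons share the HFD libraries, and 7 of the 13 genes are also among the adipocyte markers, whose sum was highest in HFD replicate 1.

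The tested genes most like the mean profile of the 7 over the 11 libraries were named by the root mean square difference of centred log2(FPKM + 1). Pnpla3, a lipid droplet protein related to Pnpla2, was nearest at 0.225, followed by Mrap, an accessory protein of melanocortin receptors, at 0.244 and Aqp7, the glycerol channel of fat cells, at 0.257. Apol6 (0.267), A530016L24Rik (0.281), the mast cell protease gene Mcpt4 (0.294), the potassium channel gene Kcnj5 (0.316) and the ficolin gene Fcna (0.318) came next. A profile without any change would score 0.834, and the median tested gene scored 0.816. Aqp7 is also among the 19 adipocyte markers, and all 8 genes had their highest level in HFD replicate 1 except A530016L24Rik, which was highest in WT replicate 3.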

How the data were processed

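RNA from mouse aorta was profiled by mRNA sequencing in 12 deposited samples. Per the labels' protocols, RNA was isolated by TRIzol and libraries came from NEB's directional kit. GRCm38, featureCounts 1.5.0-p3 and DESeq 1.8.3 are named in the submitters' processing notes, and no source used here gives the aligner or strand setting. The deposited files hold 1 value per gene symbol with no unit in the header. They were read as FPKM computed by the authors, since multiplication by GENCODE M21 exonic lengths and a read total per library returned whole reads for 96.0 to 97.3% of low values (up to 20 reads, tolerance 0.1). A TPM scaling would pass that check too and would change the read totals. Of 3534 symbols, 3528 were used, without 1 duplicated symbol (2 rows) and 4 altered to dates, and 3410 matched 1 GENCODE gene.

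A gene had to reach 1 FPKM in 3 libraries or more, which left 1656 genes. These entered limma-trend on log2(FPKM + 1) in 1 fit of 4 group means (limma 3.58.1, R 4.3.3), with Benjamini-Hochberg adjustment over all of them. The fold changes are on the log2(FPKM + 1) scale, which understates the change of low genes such as Plin1. No file holds counts, so the planned test for normalized units applied. The alternatives were a pseudocount of 0.1, no filter, a filter of 5 FPKM, median-ratio scaling, each library left out, groups fitted alone, a replicate block, an adipocyte marker covariate and limma-voom on recovered reads. Recovered counts are not independent molecules. The fit was tested on simulated data. Relations used Pearson and Spearman coefficients with 100000 permutations (SciPy 1.17.1).

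The 7 genes and all lists were chosen with earlier results of these data known, so no p is given for a list as a set. The permutation p of a gene's relation to the marker mean does not allow for that choice. Named were the 7 genes, up to 4 genes of a pathway list by smallest p, and the 8 genes nearest to their mean profile. Promoter windows are from RefSeq. No source used here gives the rule that selected the genes of the deposited table.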

Additional observations from a re-analysis of the deposited data

Results flagged for a closer look

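Among the 8 high-fat libraries, HFD replicate 1, the library deposited under both replicate numbers 1 and 2, stood far above the next highest for 6 of the 7 genes on the FPKM scale. It was at 31.8 FPKM for Plin1, 41.9 FPKM for Plin4, 78.6 FPKM for Cidec, 28.6 FPKM for Lipe, 73.5 FPKM for Pnpla2 and 16.3 FPKM for Dgat2. What marked each value was its gap to the nearest other library as a share of the range of the 8, by Dixon's criterion. Of 14 high and low ends tested, 6 were marked on the FPKM scale and 3 on the log2(FPKM + 1) scale, those of Plin4, Lipe and Pnpla2. Plin1, Cidec and Dgat2 were marked on the FPKM scale alone. Chance marks about 1 in 20 groups where values are normally distributed, which was not checked here. The 6 values come from 1 library and are not independent. The same library had the highest sum of adipocyte markers, 1952 FPKM, and the part of those cells in the 6 values was not tested.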

How the results depend on the processing

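No gene of the 7 passed the threshold under any alternative but 1, Lipe in high-fat minus WT without WT replicate 3 (members past the threshold 0 to 1 over libraries left out in that comparison, and 0 in the other 4). Of 645 values of single genes under alternatives, 588 kept their direction and side of the threshold, 56 changed sign without being called and 1 was newly called. Some changes of sign were small, as for Pnpla2 in HSAPN minus HAPN, at -0.00 with median-ratio scaling against 0.05 as fitted. Others were large. Plin1 in HFD minus WT was at -0.59 with a pseudocount of 0.1 and -1.78 with limma-voom, against 0.39 as fitted. In HAPN minus HFD it was at 0.24 with limma-voom, against -1.34 as fitted. The median of the 7 in HFD minus WT was -0.04 and -0.08 under those 2 settings, against 0.33 as fitted. The cause of these changes was not tested.

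Counts over all genes moved more. With no filter on low values, limma called 2 genes in HFD minus WT, 5 in HAPN minus HFD, 1 in HSAPN minus HAPN, 2 in HSAPN minus HFD and 3 in high-fat minus WT (0, 3, 2, 0 and 1 as fitted). Median-ratio scaling gave 5 in HAPN minus HFD and 0 in high-fat minus WT. The adipocyte marker covariate gave 1 in HFD minus WT, 5 in HAPN minus HFD and 46 in high-fat minus WT. limma-voom gave 0 in HAPN minus HFD and 1 in HSAPN minus HAPN, the groups fitted alone 0 in both, and a pseudocount of 0.1 and the filter of 5 FPKM each 0 in high-fat minus WT. Leaving out each library in turn gave 0 to 27 genes in HFD minus WT, 0 to 6 in HAPN minus HFD, 0 to 3 in HSAPN minus HAPN, 0 to 3 in HSAPN minus HFD and 0 to 240 in high-fat minus WT, the 27 and the 240 both without WT replicate 3. The median log2 difference of the 7 genes ran from -1.34 to 1.68, -1.83 to 0.47, -0.48 to 0.19, -1.94 to 0.37 and -1.14 to 0.24 in that order of comparisons. Where 1 HFD library is left, it was assumed to vary like the other groups.

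Same-numbered samples deviated together in 4 of 15 pairs (r above 0.1, range -0.59 to 0.50). Deviations from the mean of so few libraries depend on each other, and 1 HFD library carries 2 numbers, so this check cannot decide on pairing. The labels do not say that a number pairs samples, so the numbers were taken as names. With the replicate block, limma called 0 genes in HAPN minus HFD, 3 in HSAPN minus HAPN, 1 in high-fat minus WT and none of the 7 genes. Depth limits Plin1 most, at 1 read in HFD replicate 3.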
